A study of Mus musculus with 9 samples.

Results

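The D-type cyclins, their kinases and the inhibitors of those kinases were described in 9 mouse lymphomas: the cyclins Ccnd1, Ccnd2 and Ccnd3, the kinases Cdk4 and Cdk6, and the inhibitors Cdkn2b, Cdkn2c, Cdkn2d and Cdkn1b. These 9 genes of 18193 on the array were chosen by name from the platform annotation, with every probe set assigned to them, 24 of 45037. They were chosen because earlier results of these data had shown Ccnd1 to be low in 2 of the 9 lymphomas, so that split of Ccnd1 is given as a description, with no test. The question was whether Ccnd2 or Ccnd3 was high in the lymphomas in which Ccnd1 was low.

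Of the 9 lymphomas, 5 came from mice with both an Eμ-Myc and an Eμ-TTP-1 transgene (called double-transgenic here) and 4 from mice with Eμ-Myc and no Eμ-TTP-1, all on a background that was 94% C57BL/6. In both groups the Eμ enhancer of the immunoglobulin heavy chain gene drives Myc in the B lineage, and in the double-transgenic mice such a transgene also carries TTP (tristetraprolin, gene Zfp36), which binds AU-rich elements in mRNAs and promotes their decay. Age and sex of the mice were not given in the sources used here. Each lymphoma was hybridised to 1 Affymetrix mouse genome array, and the labels call the lymphomas of a group biological replicates. The values were GCRMA intensities, reported here as log2, and a probe set was counted as measured above background where log2 exceeded 4 in at least 4 of the 9 arrays. The median intensity of an array was 12.2 to 13.4, and 47.6% to 48.8% of its probe sets exceeded an intensity of 16, which is log2 4. Levels are compared between lymphomas within a probe set, never between probe sets. With so few arrays, the precision of all values is limited by their number.

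D-type cyclins are the cyclins that respond to mitogens: they bind and activate CDK4 and CDK6, which phosphorylate the retinoblastoma protein RB and so release E2F factors to switch on genes of DNA replication. INK4 proteins (the products of Cdkn2a to Cdkn2d) bind CDK4 and CDK6 and block them, while p27 (Cdkn1b) inhibits cyclin E and cyclin A complexes of CDK2 and is itself bound by cyclin D complexes. In normal mouse B cells, cyclin D2 and cyclin D3 are the usual D cyclins, with D3 needed for pre-B cells and germinal centre B cells, and cyclin D1 is largely absent. In human mantle cell lymphoma, CCND1 is switched on by a translocation to the immunoglobulin heavy chain locus.

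All 7 measured pan-B markers exceeded log2 4 in all 9 lymphomas, though not all were even. The pan-B marker Cd79a, a part of the B-cell receptor, read 13.80, 14.04, 13.83, 13.88 and 13.69 in double-transgenic lymphomas and 14.06, 13.96, 13.68 and 13.24 in Eμ-Myc lymphomas. Ms4a1 (CD20) ran from 10.08 to 14.47, and Cd22 was low in double-transgenic replicate 2, as given with the stage markers. The summed intensity of the 7 pan-B markers was 67253 to 74656 in double-transgenic and 50511 to 89606 in Eμ-Myc lymphomas. Zfp36 did not separate the groups: it read 10.85, 9.98, 10.80, 10.34 and 10.79 in double-transgenic lymphomas and 10.84, 10.20, 11.01 and 10.24 in Eμ-Myc lymphomas. It is unknown whether the transgene carries the stretch of mRNA that this probe set reads, so it is no check of the genotype labels. In these bulk samples, fewer cells of a type and less RNA per cell cannot be told apart.

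Promoter windows of RefSeq (GRCm38.p6, 250 bases before to 50 bases after a transcript start) were read for 7 of the 9 genes, with 9 windows in all, and Ccnd1 and Ccnd2 had no entry. Since Myc is driven by a transgene in all 9 lymphomas, the windows were searched for CACGTG, the canonical E-box that MYC with MAX can bind. The motif is its own reverse complement, so both strands are covered at once. It stood in 3 of the 9 windows, those of Cdk4, Cdk6 and 1 of the 2 windows of Cdkn2c, against 2349 of 32851 windows genome-wide, or 7.15%. The Cdk4 window held 4 copies, as 8 of the 32851 windows did with 4 or more (0.0244%). A match is a description of the letters in a window, and binding was not measured. The windows of both kinases are printed because CDK4 and CDK6 are the partners of every D cyclin, with CACGTG in capitals, from chr10:127063285-127063584 (Cdk4, plus strand) and chr5:3343643-3343942 (Cdk6, plus strand).
Cdk4: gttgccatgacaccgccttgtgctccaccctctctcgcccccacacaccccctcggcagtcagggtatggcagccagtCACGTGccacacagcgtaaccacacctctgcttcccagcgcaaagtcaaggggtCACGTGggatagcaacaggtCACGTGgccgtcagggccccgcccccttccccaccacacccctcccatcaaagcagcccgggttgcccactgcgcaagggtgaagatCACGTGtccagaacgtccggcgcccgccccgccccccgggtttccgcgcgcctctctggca
Cdk6: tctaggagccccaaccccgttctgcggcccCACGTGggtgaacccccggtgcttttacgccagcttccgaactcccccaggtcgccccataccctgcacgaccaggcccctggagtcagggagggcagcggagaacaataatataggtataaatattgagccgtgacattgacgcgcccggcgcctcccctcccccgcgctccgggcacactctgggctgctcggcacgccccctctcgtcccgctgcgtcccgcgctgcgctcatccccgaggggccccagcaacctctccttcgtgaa

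Ccnd1 was high in 7 lymphomas and low in 2, 1 of each genotype, and its 3 probe sets gave the same split. Probe set 1417420_at, the brightest of them, read 12.60, 8.03, 12.65, 12.82 and 12.61 in double-transgenic replicates 1 to 5 and 8.86, 12.32, 12.83 and 12.22 in Eμ-Myc replicates 1 to 4. The low lymphomas were double-transgenic replicate 2 and Eμ-Myc replicate 1, and the high ones of both genotypes overlapped. Just inside the split lay the 8.86 of Eμ-Myc replicate 1, and just outside it the 12.22 of Eμ-Myc replicate 4.

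The other Ccnd1 probe sets repeated the order of the groups of lymphomas. Probe set 1417419_at read 11.74, 6.62, 11.21, 11.42 and 11.10 in double-transgenic lymphomas and 6.75, 11.09, 11.58 and 10.71 in Eμ-Myc lymphomas. Probe set 1448698_at read 11.96, 6.52, 11.73, 12.06 and 11.67 in double-transgenic lymphomas and 7.50, 11.65, 11.95 and 11.33 in Eμ-Myc lymphomas. The distance from the higher of the 2 low lymphomas to the lowest of the other 7 was 3.35, 3.96 and 3.83 in log2 on 1417420_at, 1417419_at and 1448698_at, which is 10.2-fold, 15.6-fold and 14.2-fold. All 3 probe sets stayed above log2 4 in the low lymphomas, so Ccnd1 mRNA was measured above background there too.

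**Figure D1:**
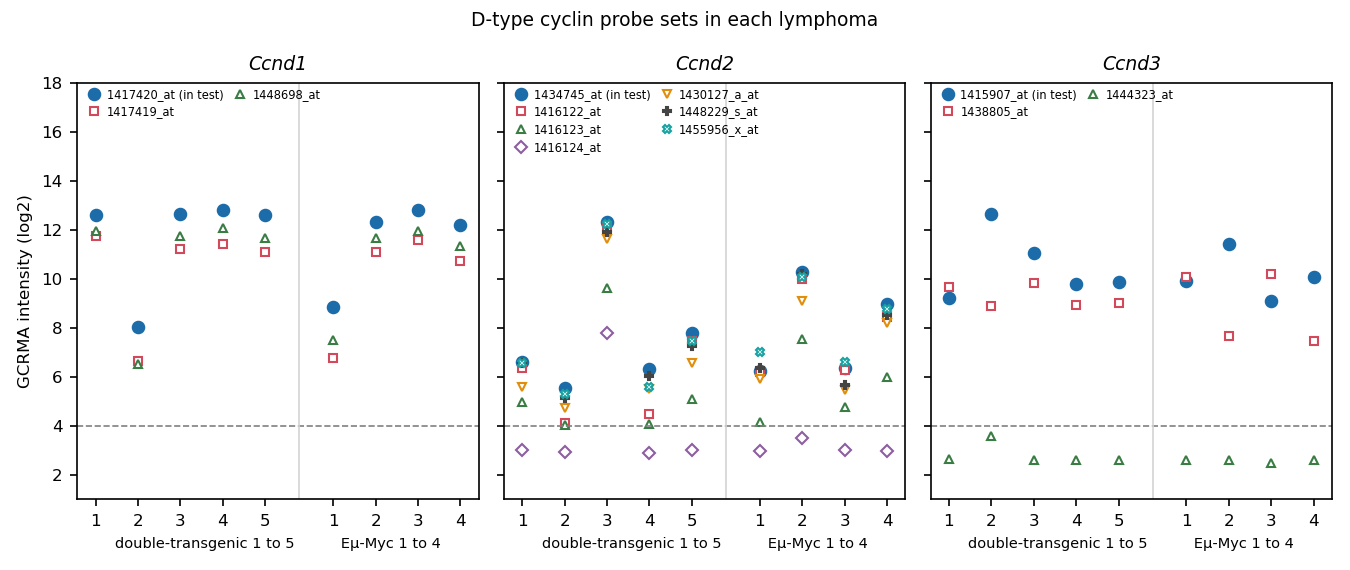
Log2 intensity of every probe set of the 3 D cyclins in each of the 9 lymphomas, with double-transgenic replicates to the left and Eμ-Myc replicates to the right; filled circles are the probe set used in the gene test and the dashed line is log2 4. Ccnd1 is low in double-transgenic replicate 2 and Eμ-Myc replicate 1 on all 3 probe sets, Ccnd2 is highest in double-transgenic replicate 3, and the 2 upper Ccnd3 probe sets do not rank the lymphomas alike.

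Ccnd2 was not high in either lymphoma with low Ccnd1. Probe set 1434745_at read 6.60, 5.55, 12.31, 6.30 and 7.77 in double-transgenic lymphomas and 6.24, 10.29, 6.36 and 8.99 in Eμ-Myc lymphomas. Double-transgenic replicate 2 was the lowest of the 9 on all 6 probe sets that passed the filter, and Eμ-Myc replicate 1 ranked from 5 to 8 counted from the highest. Its high values came in double-transgenic replicate 3 and Eμ-Myc replicates 2 and 4, in which Ccnd1 read 12.65, 12.32 and 12.22. High Ccnd2 was thus seen beside high Ccnd1 in those 3 lymphomas.

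The Ccnd2 probe sets ranked the lymphomas alike, with Pearson correlations across the 9 lymphomas of 0.961 to 0.994 over 15 pairs of probe sets. The seventh, 1416124_at, did not pass: it read 7.78 in double-transgenic replicate 3 and at most 3.49 in the other 8. Of the 10172 genes tested between the genotypes, 98.1% had a smaller SD over the 9 lymphomas than Ccnd2, and 96.4% a smaller one than Ccnd1. The median gene had an SD of 0.356 and a range of 1.12 in log2.

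Ccnd3 gave a different answer on each of its 2 measured probe sets. On 1415907_at, the brighter, it read 9.22, 12.64, 11.05, 9.79 and 9.86 in double-transgenic lymphomas and 9.91, 11.44, 9.11 and 10.05 in Eμ-Myc lymphomas. Double-transgenic replicate 2 was the highest of the 9 there, 2.74 above the median of all 9 in log2, while Eμ-Myc replicate 1 was at the median. On 1438805_at, Ccnd3 read 9.68, 8.89, 9.84, 8.92 and 9.02 in double-transgenic lymphomas and 10.09, 7.66, 10.21 and 7.47 in Eμ-Myc lymphomas. There double-transgenic replicate 2 was seventh, 0.13 below the median, and Eμ-Myc replicate 1 was second highest, 1.07 above it.

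High Ccnd3 beside low Ccnd1 was thus seen in 1 of the 2 lymphomas on each probe set, and not in the same one. Across the 9 lymphomas the 2 probe sets had a Pearson correlation of -0.37 and a Spearman correlation of -0.57, while probe sets of Ccnd1, Ccnd2, Cdk4 and Cdk6 that passed had Pearson correlations of 0.908 or more and Spearman correlations of 0.833 or more within their gene. The remaining one, 1444323_at, stayed at 2.47 to 3.57, below the filter in all 9. Where on the Ccnd3 transcripts each probe set lies was not given in the labels or files, and the platform annotation gives both measured ones to Ccnd3 alone. RefSeq has 2 Ccnd3 windows, whose positions are 88416 bases apart on chromosome 17. They are printed because a gene with separate starts can make transcripts that differ, with the 50 bases from the start onward in capitals. Whether that bears on the disagreement of the 2 probe sets was not tested. The upstream window is chr17:47504801-47505100 and the downstream one chr17:47593217-47593516, both on the plus strand of GRCm38.p6, and neither holds CACGTG.
Ccnd3 upstream: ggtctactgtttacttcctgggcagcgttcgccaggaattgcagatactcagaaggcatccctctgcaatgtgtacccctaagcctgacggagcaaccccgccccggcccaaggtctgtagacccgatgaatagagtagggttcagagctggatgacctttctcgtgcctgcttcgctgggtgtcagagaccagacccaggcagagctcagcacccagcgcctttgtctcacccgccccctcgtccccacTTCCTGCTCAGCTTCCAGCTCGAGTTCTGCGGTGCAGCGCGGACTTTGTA
Ccnd3 downstream: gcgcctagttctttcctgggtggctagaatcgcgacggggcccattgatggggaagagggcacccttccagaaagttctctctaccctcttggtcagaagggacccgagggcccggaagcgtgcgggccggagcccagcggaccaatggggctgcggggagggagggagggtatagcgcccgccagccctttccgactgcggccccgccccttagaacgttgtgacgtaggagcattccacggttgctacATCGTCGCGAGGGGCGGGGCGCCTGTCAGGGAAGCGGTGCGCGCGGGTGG

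Cdk4 varied little. Probe set 1422441_x_at read 12.70, 13.01, 13.05, 13.04 and 12.75 in double-transgenic lymphomas and 12.92, 12.24, 12.57 and 12.77 in Eμ-Myc lymphomas. Its range was 0.81 over the 9 lymphomas, and its SD exceeded that of 32.7% of tested genes. Eμ-Myc replicate 2 was the lowest on all 3 Cdk4 probe sets, and both lymphomas with low Ccnd1 lay above the median of the other 7, by 0.26 in double-transgenic replicate 2 and 0.17 in Eμ-Myc replicate 1.

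Cdk6 was highest in a lymphoma with low Ccnd1. Probe set 1435338_at read 12.56, 13.32, 12.63, 12.77 and 12.38 in double-transgenic lymphomas and 12.45, 11.34, 12.90 and 12.04 in Eμ-Myc lymphomas. Double-transgenic replicate 2 was the highest and Eμ-Myc replicate 2 the lowest on both measured Cdk6 probe sets, which had a correlation of 0.992. Eμ-Myc replicate 1, the other lymphoma with low Ccnd1, ranked sixth. The remaining probe set, 1460291_at, read 2.39 to 4.15 and did not pass.

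**Figure D2:**
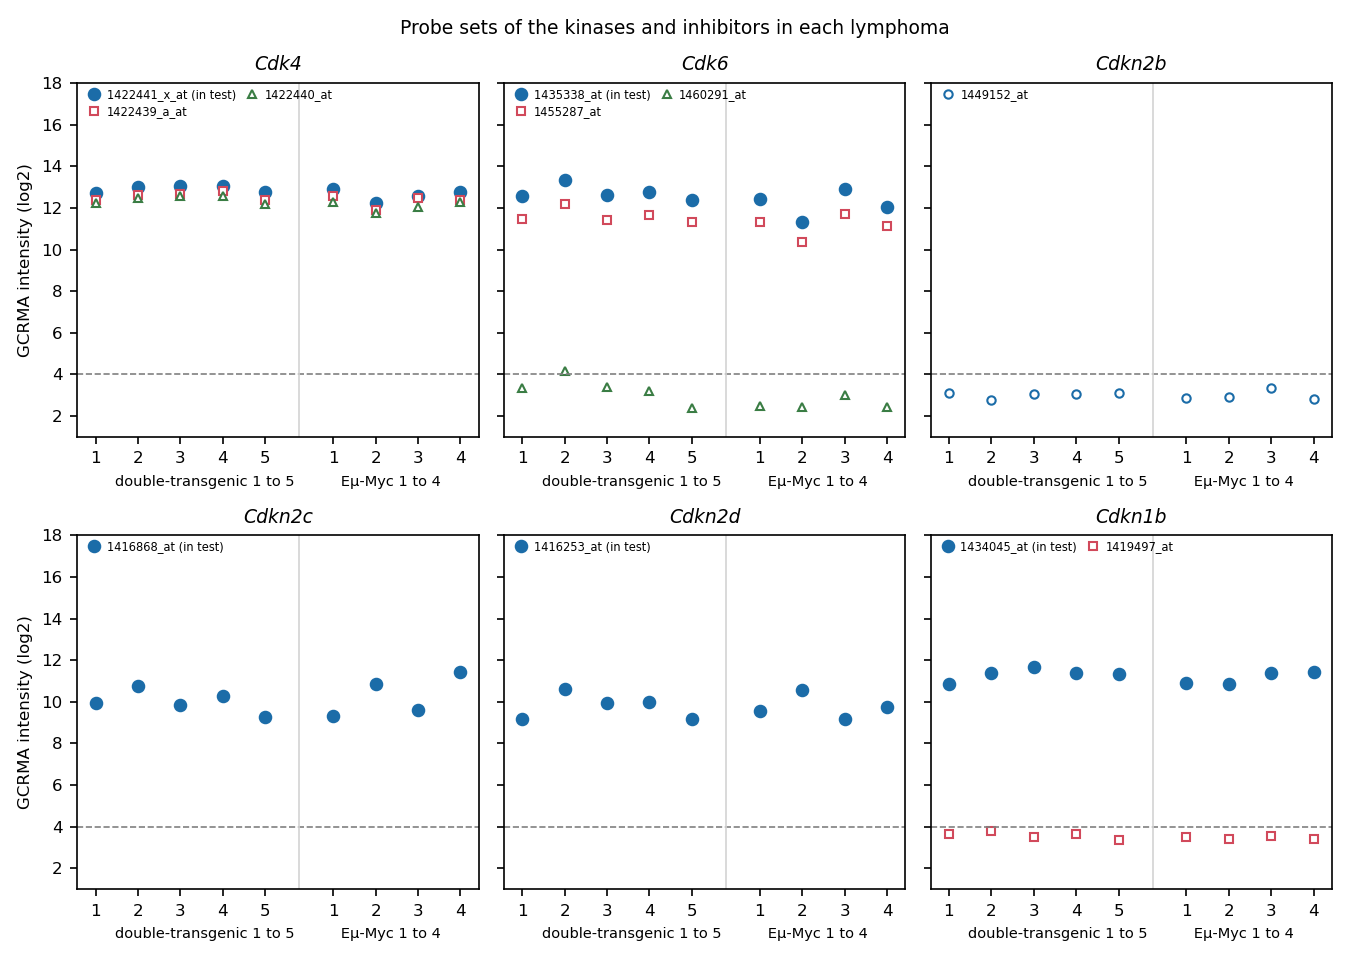
Log2 intensity of every probe set of the 2 kinases and the 4 inhibitors in each of the 9 lymphomas, with double-transgenic replicates to the left and Eμ-Myc replicates to the right; filled circles are the probe set used in the gene test and the dashed line is log2 4. Of the genes above the line, Cdk4 and Cdkn1b vary least; Cdk6 is lowest in Eμ-Myc replicate 2, and Cdkn2b lies below the line in all 9.

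Of the INK4 inhibitors, Cdkn2c (p18) and Cdkn2d (p19) were measured in every lymphoma and Cdkn2b (p15) in none. Cdkn2b read 3.09, 2.77, 3.07, 3.06 and 3.08 in double-transgenic lymphomas and 2.88, 2.89, 3.34 and 2.81 in Eμ-Myc lymphomas, so it did not enter the test. Cdkn2c read 9.92, 10.75, 9.85, 10.29 and 9.27 in double-transgenic lymphomas and 9.30, 10.84, 9.62 and 11.44 in Eμ-Myc lymphomas. The groups overlapped, and the lymphomas with low Ccnd1 had ranks 3 (double-transgenic replicate 2) and 8 (Eμ-Myc replicate 1).

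Cdkn2d read 9.18, 10.61, 9.95, 10.00 and 9.17 in double-transgenic lymphomas and 9.55, 10.55, 9.17 and 9.76 in Eμ-Myc lymphomas. Its highest value was in double-transgenic replicate 2 and its next in Eμ-Myc replicate 2, the same first and second places as Ccnd3 on 1415907_at. Cdkn1b, which encodes p27, read 10.87, 11.36, 11.67, 11.39 and 11.36 in double-transgenic lymphomas and 10.90, 10.84, 11.38 and 11.45 in Eμ-Myc lymphomas on 1434045_at. Its range was 0.82, and its other probe set, 1419497_at, stayed at 3.38 to 3.81, below the filter.

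**Figure D3:**
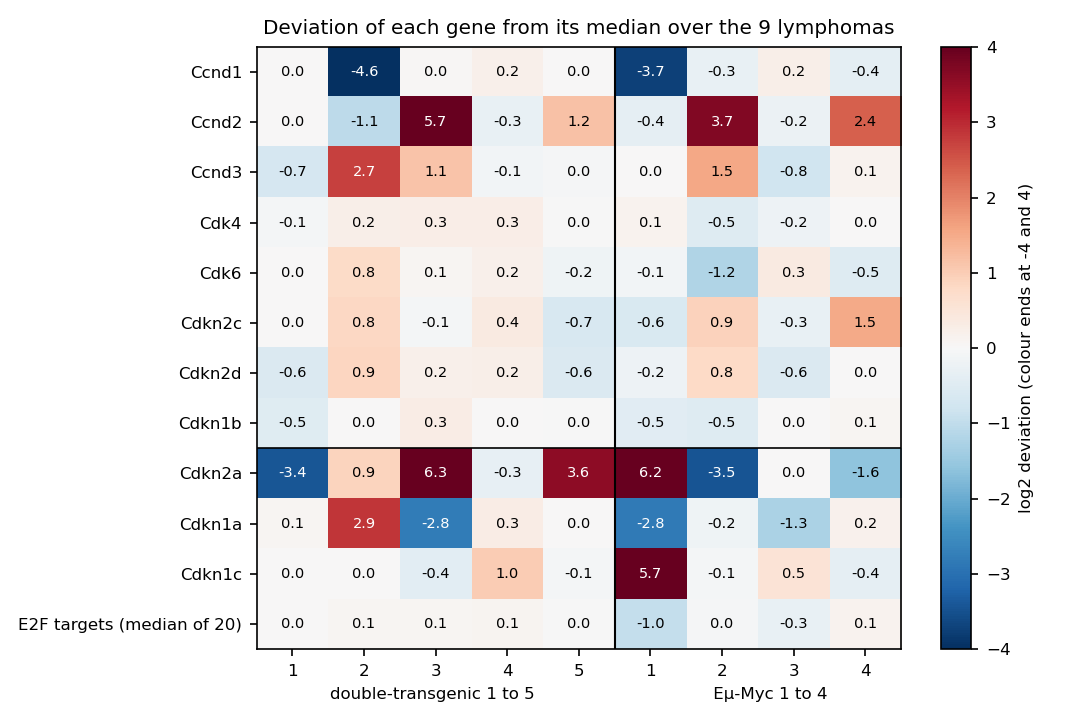
Deviation of each tested gene from its own median over the 9 lymphomas, in log2 (colours end at -4 and 4), with lymphomas in columns (double-transgenic left, Eμ-Myc right); the lower rows hold 3 further inhibitors and the median over 20 E2F target genes. Double-transgenic replicate 2 shows low Ccnd1 and Ccnd2 with high Ccnd3 (1415907_at), Cdk6, Cdkn2c and Cdkn2d, and Eμ-Myc replicate 1 shows low Ccnd1 with Ccnd3 at the median of that probe set; on 1438805_at, not plotted, Ccnd3 deviated by -0.13 and 1.07 in these lymphomas.

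Between the genes, the 21 pairwise correlations over the same 9 arrays are given only as a description, without Ccnd1, whose levels form clusters. Of the 21 Pearson values, 16 were above 0. Ccnd3 (1415907_at) and Cdkn2d had a Pearson correlation of 0.89 and a Spearman correlation of 0.75. The Pearson value was 0.70 without the 2 lymphomas farthest from the Ccnd3 median, double-transgenic replicate 2 and Eμ-Myc replicate 2. These were the 2 highest in Cdkn2d, but on the other measured Ccnd3 probe set, 1438805_at, they ranked 7 and 8 (8.89 and 7.66). The correlation is thus given for 1415907_at alone. Cdk4 and Cdk6 had a Pearson correlation of 0.71 and a Spearman correlation of 0.43, and the Pearson value was 0.31 without double-transgenic replicate 3 and Eμ-Myc replicate 2. Cdkn2c and Cdkn2d had a Pearson correlation of 0.65 and a Spearman correlation of 0.72, and the Pearson value was 0.81 without Eμ-Myc replicates 2 and 4. Ccnd2 and Cdk6 ran in opposite directions, with a Pearson correlation of -0.56 and a Spearman correlation of -0.60, and the Pearson value was -0.86 without double-transgenic replicate 3 and Eμ-Myc replicate 2.

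No member differed between the genotypes. Of the 8 genes that passed the filter, 0 had an adjusted p under 0.05 (limma, Benjamini-Hochberg over 10172 genes), as in 0% of all tested genes. At an unadjusted p under 0.05 there were also 0 of 8, against 5.67% of all tested genes (3.87% higher and 1.80% lower in double-transgenic lymphomas), and 0 of 8 had groups that did not overlap, against 1.64% of all. The lowest adjusted p among them was 0.860 by limma. The difference was positive for 6 of the 8 and negative for 2, with a median log2 difference of 0.19 where that of all tested genes was 0.05. Fitted by probe set, 0 of 19 members passed, as in 0% of 21785 probe sets, and 0 of 19 had an unadjusted p under 0.05, against 5.89%.

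The intervals show what size of genotype difference each gene allowed. Ccnd1 averaged 11.74 ± 2.08 in double-transgenic and 11.56 ± 1.82 in Eμ-Myc lymphomas (SD, n = 5 and 4), a log2 difference of 0.19 (95% interval -2.52 to 2.89), which allowed 0.174-fold to 7.42-fold. Ccnd2 averaged 7.71 ± 2.69 in double-transgenic and 7.97 ± 2.00 in Eμ-Myc lymphomas, a difference of -0.26 (95% interval -3.59 to 3.06). Ccnd3 averaged 10.51 ± 1.36 in double-transgenic and 10.13 ± 0.97 in Eμ-Myc lymphomas, a difference of 0.38 (95% interval -1.29 to 2.05). For the cyclins the spread within a genotype was thus several times the difference, and a change of 2-fold in either direction lay inside all 3 intervals.

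The kinases and p27 had narrower intervals. Cdk4 averaged 12.91 ± 0.17 in double-transgenic and 12.62 ± 0.29 in Eμ-Myc lymphomas (SD, n = 5 and 4), a log2 difference of 0.28 whose interval allowed 0.941-fold to 1.58-fold (limma adjusted p = 0.860). Cdk6 averaged 12.73 ± 0.36 in double-transgenic and 12.18 ± 0.66 in Eμ-Myc lymphomas, a difference of 0.55 whose interval allowed 0.884-fold to 2.42-fold (limma adjusted p = 0.860). Cdkn1b differed by 0.19, with 0.830-fold to 1.56-fold allowed. Cdkn2c differed by -0.29 (0.387-fold to 1.74-fold) and Cdkn2d by 0.02 (0.566-fold to 1.83-fold).

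**Figure D4:**
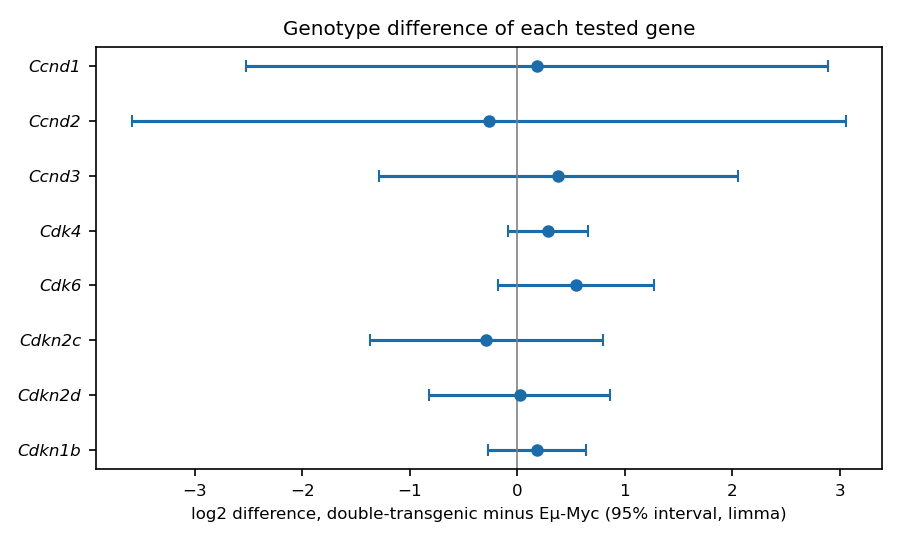
Log2 difference, double-transgenic minus Eμ-Myc, of each of the 8 tested genes with its 95% interval from limma (n = 5 and 4). All 8 intervals include 0, and those of Ccnd1 and Ccnd2 are the widest.

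Other inhibitors outside the chosen genes varied widely among lymphomas. Cdkn2a, which encodes p16 and the p53 activator ARF, read 2.62, 6.94, 12.32, 5.73 and 9.65 in double-transgenic lymphomas and 12.24, 2.60, 6.06 and 4.46 in Eμ-Myc lymphomas. It was high in double-transgenic replicates 3 and 5 and Eμ-Myc replicate 1, the last a lymphoma with low Ccnd1. Cdkn1a (p21, a target of p53) read 8.41, 11.20, 5.52, 8.62 and 8.33 in double-transgenic lymphomas and 5.49, 8.17, 7.06 and 8.51 in Eμ-Myc lymphomas. It was thus highest in one lymphoma with low Ccnd1, double-transgenic replicate 2, and lowest in the other, Eμ-Myc replicate 1. Cdkn1c (p57) read 9.78 in Eμ-Myc replicate 1, with the other 8 at 3.63 to 5.06. None of these 3 genes passed the genotype test, with log2 differences of 1.11 for Cdkn2a, 1.11 for Cdkn1a and -1.35 for Cdkn1c and limma adjusted p of 0.968, 0.901 and 0.886.

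Downstream of the kinases, 0 of 13 genes for RB family, E2F and DP factors passed the adjusted threshold in either direction, 9 had a positive difference, as 58.9% of all tested genes did, and 2 had an unadjusted p under 0.05, against 5.67% of all. These were Rbl1 (p107, an RB relative), with a log2 difference of 0.62 (95% interval 0.09 to 1.16), and E2f3, with 0.53 (95% interval 0.06 to 1.00), both at a limma adjusted p of 0.845. Both were lowest in Eμ-Myc replicate 1 (11.01 and 9.06). The median of the 13 was 0.122, and 0.035 without that lymphoma, where that of all tested genes was 0.038 and 10 of the 13 were positive. Of 20 tested E2F target genes, which encode replication factors and other proteins needed for DNA synthesis, 0 passed, 1 had an unadjusted p under 0.05 and 19 had a positive difference, against 58.9% of all tested genes, with a median of 0.34. Gins2, a part of the replicative helicase complex, differed by 1.07 and Mcm2, another part, by 0.29. The list was low in Eμ-Myc replicate 1, which had low Ccnd1: its median deviation was -0.95 there and 0 of 20 genes lay above their median. In Eμ-Myc replicate 3, a lymphoma with high Ccnd1, 0 of 20 lay above their median too, at a median deviation of -0.29. In double-transgenic replicate 2, the other lymphoma with low Ccnd1, the median deviation was 0.07, with 13 of 20 above. Without Eμ-Myc replicate 1, 15 of the 20 E2F targets had a positive difference and the median was 0.11, where that of all tested genes was 0.04.

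Of 8 genes for cyclin E, cyclin A, CDK2 and their activators, 0 passed and 6 had positive differences, with Ccne1 (cyclin E1) at -0.68 and Cdc25a, a phosphatase that activates CDK2, at 0.33. Of 14 genes for turnover of D cyclins and p27, 0 passed and 8 had positive differences. Cul4b, a ubiquitin ligase scaffold, was at 0.37 and Ambra1, the ligase adaptor that targets D cyclins, at 0.24. Of the 14, 1 had an unadjusted p under 0.05 by limma, against 5.67% of all tested genes. Of 15 genes for regulators of the D cyclin genes, 0 passed and 9 had positive differences, with Zfp36l2, a relative of TTP, at 0.53 and Klf2, a factor of B-cell quiescence, at -0.60. The medians of these lists were 0.20, 0.04 and 0.07, where that of all tested genes was 0.05 and 58.9% of all had positive differences.

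Genes with the same split as Ccnd1 were sought over the 10172 tested genes, again as a description. The 2 lymphomas with low Ccnd1 were the 2 lowest for 450 genes (4.42%), Ccnd1 itself included, and the 2 highest for 346 (3.40%). The gap to the other 7 exceeded 1 in log2 for 27 (again with Ccnd1) and 16 of these. Trp53i11 had a gap of 3.49, beside 3.35 for Ccnd1 on 1417420_at and 3.96 and 3.83 on its other probe sets. Mapk12, a p38 kinase, read 2.16 in double-transgenic replicate 2 and 3.90 in Eμ-Myc replicate 1, both not above log2 4, so its gap to the 6.93 to 9.05 of the other 7 has no determined size. The other genes named for this split were Plxnb2, a semaphorin receptor (gap 2.12), Tnfrsf13c, the BAFF receptor of mature B cells (2.05), and Itgal, an integrin of leukocytes (1.97). Tnfrsf13c read 7.59 in double-transgenic replicate 2 and 7.58 in Eμ-Myc replicate 1, while the other 7 read 9.64 to 12.10. In the opposite direction the widest gaps were those of Gpr171 (1.88), Pafah2 (1.74), Dnajc28 (1.73), Runx1, a transcription factor of blood cell development (1.66), and Prm1 (1.58). Among the other 7 lymphomas, Prm1 exceeded log2 4 only in double-transgenic replicates 3 (4.34) and 4 (6.28). Prm1 thus met the filter only with the 2 lymphomas with low Ccnd1 counted. Runx1 read 12.80 in double-transgenic replicate 2 and 11.94 in Eμ-Myc replicate 1, while the other 7 read 8.51 to 10.28.

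For Ccnd2, the genes with the highest Pearson correlation over the 9 lymphomas were 1700037C18Rik (0.975), Msl1 (0.892) and Itpa (0.888), which became 0.877, 0.869 and 0.807 without double-transgenic replicate 3 and Eμ-Myc replicate 2. For Ccnd3 on 1415907_at they were Ate1 (0.951), Fam107b (0.947) and D6Wsu163e (0.941), which became 0.779, 0.748 and 0.799 without double-transgenic replicate 2 and Eμ-Myc replicate 2. They are the extremes of 10172 genes over 9 points that share their arrays.

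The chromosomal neighbours of Ccnd1 did not share its split. LTO1, the nearest gene on one side with a probe set, read 8.20 in double-transgenic replicate 2 and 7.99 in Eμ-Myc replicate 1, with the other 7 at 7.83 to 8.22. Tpcn2, on the other side, read 7.10 in double-transgenic replicate 2 and 7.25 in Eμ-Myc replicate 1, against 6.84 to 7.53. The other 4 of the nearest 6, Fgf4, Fgf15, Smim38 and Mrgprf, did not pass the filter. Of the nearest 6 of Ccnd2, 4 did not pass either. Beside Ccnd2, Tigar read 6.70 in double-transgenic replicate 2, the lymphoma lowest in Ccnd2, with the other 8 at 8.28 to 8.78. Parp11, 2 genes away on the other side, was highest in Eμ-Myc replicate 2 (10.01) and double-transgenic replicate 3 (9.80), which were also the 2 highest in Ccnd2, with 9.22 to 9.49 in the other 7. Beside Ccnd3, Usp49 was highest in double-transgenic replicate 2 (6.34, with the other 8 at 4.86 to 6.05), while Taf8 (9.30), Bysl (9.75) and Med20 (10.78) were within the range of the rest, and 1700001C19Rik and AI661453 did not pass.

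Markers of B-cell stage and of other cells moved between lymphomas, and their part in the cyclin levels was not tested. Vpreb1 and Igll1, which encode the surrogate light chain of precursor B cells, were highest in double-transgenic replicate 2 (14.79 and 15.34), followed by double-transgenic replicate 4 (12.33 and 12.10) and Eμ-Myc replicate 4 (9.69 and 11.00). The lowest Cd22 was also in double-transgenic replicate 2: this gene, a B-cell receptor modulator, read 6.99 against 11.91 to 12.93 in the other 8. Eμ-Myc replicate 1 did not share these values, with Vpreb1 at 2.51, Igll1 at 5.84 and Cd22 at 12.49. The summed intensity of the 6 measured mature B markers was 132.0 in double-transgenic replicate 2 and 4313 in Eμ-Myc replicate 1, outside the 956 to 3316 of the other 7 on opposite sides. Of the 6, 0 lay above their median in double-transgenic replicate 2 and 4 in Eμ-Myc replicate 1. In the latter Ccr7 read 11.28, but Cr2 read 2.86 and Fcer2a 4.60, so its sum does not stand for every marker. Plasma cell markers, over 5 genes, had a median deviation of -1.87 in double-transgenic replicate 2. That median was 2.17 for Eμ-Myc replicate 1 and -1.01 to 0.67 for the other 7. Sdc1 (3.41 against 7.74), Prdm1 (3.64 against 7.68) and Jchain (3.58 against 9.21) were not above log2 4 in the first of these. The -1.87 thus has no determined size. Xbp1 alone went the other way, at 13.24 against 10.76. Other precursor B markers were mixed. Kit was highest in double-transgenic replicate 2 (10.73) and lowest in Eμ-Myc replicate 1 (4.24), with the other 7 at 4.76 to 7.65. Vpreb3 was also highest in double-transgenic replicate 2 (13.09, with the other 7 at 11.80 to 13.07) and read 12.24 in Eμ-Myc replicate 1. Il7r, a cytokine receptor subunit, did not follow the surrogate light chain. It was highest in the lymphomas with low Ccnd1 (13.06 in double-transgenic replicate 2 and 13.08 in Eμ-Myc replicate 1, with the other 7 at 5.64 to 12.86). Rag1, a recombinase subunit, read 10.59 in double-transgenic replicate 2 and 14.76 in Eμ-Myc replicate 1. Rag2, the other recombinase subunit, read 7.31 and 7.76 in these lymphomas, with the other 7 at 2.45 to 10.96. Dntt read 1.88 and 1.94, not above log2 4 in either. Il7r was nearly as high in double-transgenic replicates 3 (12.78) and 4 (12.86). The lymphomas with low Ccnd1 were thus unlike in Vpreb1, Igll1, Kit, Cd22, Rag1, the mature B sum and the plasma cell median. They were alike in Il7r and Rag2, neither of them particular to these lymphomas.

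Granulocyte markers varied widely, at a summed intensity over 7 measured genes of 20697 in double-transgenic replicate 2 and 777 in Eμ-Myc replicate 1, where the other 7 gave 183 to 18472. Double-transgenic replicate 2 and Eμ-Myc replicate 2 (18472), which came first and second in Ccnd3 on 1415907_at and in Cdkn2d, were both among the lymphomas rich in these markers, and so was Eμ-Myc replicate 3 (18204), which had the lowest Ccnd3 there. Macrophage markers, over 10 genes, summed to 29018 in double-transgenic replicate 2 and 20410 in Eμ-Myc replicate 1, inside the 19073 to 64684 of the other 7. Stromal and endothelial markers, over 8 genes, summed to 55670 in double-transgenic replicate 2 and 21882 in Eμ-Myc replicate 1, inside the 5903 to 64655 of the other 7. T and natural killer markers, over 7 genes, summed to 59.6 in double-transgenic replicate 2 and 82.6 in Eμ-Myc replicate 1, below the 99.3 to 462 of the other 7. Cd3e and Ncr1 were not above log2 4 in any lymphoma. Cd3d (3.37 and 3.70), Cd3g (1.15 and 2.96) and Cd28 (3.30 and 3.38) were not above it in these 2 lymphomas either. Their sums are thus largely background and have no determined distance from the others. Between the genotypes, 0 genes of the marker lists passed the adjusted threshold. The median log2 difference was 1.71 over 6 precursor B markers and -2.62 over 6 granulocyte markers, and their part in the genotype differences of the cyclin genes was not tested.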

How the data were processed

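Per the labels' protocols, lymphoma RNA was column-purified and made into biotin-labelled cRNA, with 1 array for each of 9 lymphomas. The authors deposited 1 table of intensity values, made with GCRMA per the submitters' processing notes (version not given in the sources used here), which corrects background by probe sequence and quantile-normalises arrays. Log2 was taken of the deposited linear values, without a pseudocount. Scanner files and scan dates were not analysed here.

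The platform annotation named 1 gene for 34945 of 45037 probe sets, several for 932 and none for 9160; only the first entered gene tests, and 34741 of them matched the RefSeq table (GRCm38.p6). For each of 18193 genes the probe set of highest mean log2 was used. A log2 value over 4 in at least 4 of 9 arrays left 10172 genes. The genotype test was limma 3.58.1 under R 4.3.3 (lmFit, eBayes, two-sided, Benjamini-Hochberg, threshold 0.05), tested on simulated data. Deviations are from a probe set's median over the 9 lymphomas.

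The member genes, gene lists and rules were chosen with earlier results of these data known. Named were all members, the 2 genes of lowest p in a pathway list, the genes most like each D cyclin (5 per direction for Ccnd1, 3 for Ccnd2 and Ccnd3), the 3 nearest genes on either side, and markers. The other CDK inhibitors, Cd79a, Zfp36, Cd22, Ms4a1, Vpreb1, Vpreb3, Igll1, Kit, Il7r, Rag1, Rag2, Dntt, Ccr7, Cr2, Fcer2a, Sdc1, Prdm1, Jchain, Xbp1, Cd3d, Cd3g and Cd28 were named after their values were seen. Alternatives were other filters, probe set choices, normalisations, a pseudocount, variance models, array weights, chromosome centring, replicate numbers as a block and each lymphoma left out.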

Additional observations from a re-analysis of the deposited data

Results flagged for a closer look

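In 38 groups of 4 or 5 lymphomas, 1 per genotype and measured probe set, 7 values stood apart from the rest of their group by Dixon's criterion, where chance flags about 1 group in 20. These groups are not independent, since probe sets of 1 gene read the same lymphomas. For Ccnd1, double-transgenic replicate 2 read 8.03 on 1417420_at against 12.60 to 12.82 in the other double-transgenic lymphomas, 6.62 on 1417419_at against 11.10 to 11.74, and 6.52 on 1448698_at against 11.67 to 12.06. Eμ-Myc replicate 1 read 8.86 on 1417420_at against 12.22 to 12.83 in the other Eμ-Myc lymphomas, and 7.50 on 1448698_at against 11.33 to 11.95. These 5 values are the split for which the genes were chosen, so their number is no evidence of it. For Ccnd2, double-transgenic replicate 3 read 9.62 on 1416123_at against 4.03 to 5.08 in the other double-transgenic lymphomas, and 11.63 on 1430127_a_at against 4.72 to 6.58.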

How the results depend on the processing

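Cdk4, Cdk6 and Cdkn1b kept a positive difference in all 21 alternatives each, from 0.16 to 0.38, 0.27 to 0.79 and 0.09 to 0.30. Of 169 values over the 8 genes, 146 kept their direction, 23 reversed, and the lowest limma adjusted p was 0.594. These counts, like the 21 alternatives, include settings that could not move a difference: the other filters and the variance model. Leaving out _x_at and _s_at probe sets moved only that of Cdk4, and averaging probe sets could not move those of Cdkn2c and Cdkn2d. Leaving out each lymphoma in turn gave -0.71 to 1.11 for Ccnd1 (without Eμ-Myc replicate 1 and without double-transgenic replicate 2), -1.41 to 0.51 for Ccnd2, -0.15 to 0.82 for Ccnd3, -0.62 to 0.094 for Cdkn2c and -0.18 to 0.29 for Cdkn2d. With array weights, Ccnd3 was -0.15 and Cdkn2d -0.17. Cdkn2d was -0.0093 after quantile normalisation. Without both lymphomas with low Ccnd1, an alternative chosen after seeing the data, Ccnd3 was -0.22 and Cdkn2d -0.25. The causes were not tested. With the replicate block, which leaves out double-transgenic replicate 5, Ccnd1 was -0.031 and 0 genes were called. Ccnd1 was also -0.031 when that lymphoma was left out without a block. Replicate numbers are not stated to pair animals, and same-numbered lymphomas correlated at -0.089 to 0.196.

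The count of genes called, 0 in the reported fit, was 0 to 8 when a lymphoma was left out: 8 without Eμ-Myc replicate 3 and 1, Mucl2, without Eμ-Myc replicate 4. It was 3 (Asns, Ltf and Mpo) without both lymphomas with low Ccnd1. No member was among them. The Ccnd3 deviation in double-transgenic replicate 2, 2.74, was 1.13 as the mean of the probe sets and -0.13 on the other probe set, and that in Eμ-Myc replicate 1, 0.0, was 1.07 on the other probe set. Cdkn2b and the 5 probe sets under the filter have no determined differences, and the number of arrays limits the rest.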
